A study of Mus musculus with 4 samples.

Results

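The regions described here are the 1000 widest accessibility peaks of each of 4 single-nucleus ATAC-seq libraries of mouse embryonic stem cells, 4000 peaks of 838566 deposited over the 4 lists. They were chosen by their width alone: in each list the 1000 autosomal peaks with the largest end minus start were taken, with ties settled by chromosome and start. These were 0.514% of the 194510 autosomal peaks of the wild-type library at day 0, 0.462% of 216617 in the day 0 knockout, 0.539% of 185384 in the day 5 wild type and 0.452% of 221143 in the day 5 knockout. Width set the membership, so the widths of the members within their own library are given as a description. What the same places looked like in the other libraries, where they lay and which genes they covered were not used to choose them. The groups formed below, by the libraries in which a region was wide, do use the other libraries.

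The cells were embryonic stem cells from mouse blastocysts, wild type or Cdc14ab KO, a genotype lacking the phosphatases Cdc14a and Cdc14b. Day 0 cells were in medium with LIF, the cytokine that maintains pluripotency, and day 5 cells had spent 5 days in N2B27 with EGF and FGF2, a neural differentiation medium. All cells had been grown over feeder cells, which were removed on gelatin before extraction, and all 4 labels carry clone 3, so each genotype is a single clone number and a line difference and a knockout effect cannot be told apart. With 1 library per group no comparison has a replicate check, no test between conditions was made, and the 95% exact (Clopper-Pearson) intervals below cover counting error only. The lists hold no score or count, so depth is unknown.

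In ATAC-seq a transposase inserts adapters where DNA is not covered by nucleosomes, and a peak is a stretch where insertions pile up. Active promoters, most of them rich in CG pairs, give strong peaks, and distal enhancers give peaks far from any gene start. In stem cells unusually broad open or marked domains are often described at genes of cell identity, at CpG islands and at clusters of enhancers, and the width that a peak caller reports also depends on whether neighbouring summits are joined or listed apart.

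Few of the wide peaks held a gene start, and a selection of their promoters is shown: those of genes in wide peaks of 3 libraries (Cbx5, Hnrnpa1, Tubb4b), examples from 2 libraries (Cited2, Cox6b2) and examples from the gene lists described below (Polr2a, Gadd45g). Each is the stretch of 250 bases before the start from RefSeq's GRCm38.p6 (the assembly behind mm10), printed 5′ to 3′ on the gene's strand with CG pairs in capitals. Cbx5 encodes a heterochromatin protein and Hnrnpa1 an RNA-binding protein of splicing. Their starts face away from each other inside 1 region, with the windows at chr15:103239853-103240102 (minus strand) and chr15:103240147-103240396 (plus strand). Tubb4b, a beta-tubulin gene, has its window at chr2:25224703-25224952 (minus strand). Cited2, a transcriptional co-regulator, has its window at chr10:17722978-17723227 (plus strand). Cox6b2 encodes a subunit of cytochrome c oxidase known from testis, with its window at chr7:4753095-4753344 (minus strand). Polr2a, the largest subunit of RNA polymerase II, has its window at chr11:69758634-69758883 (minus strand), and the stress-responsive gene Gadd45g has it at chr13:51846425-51846674 (plus strand).
Cbx5: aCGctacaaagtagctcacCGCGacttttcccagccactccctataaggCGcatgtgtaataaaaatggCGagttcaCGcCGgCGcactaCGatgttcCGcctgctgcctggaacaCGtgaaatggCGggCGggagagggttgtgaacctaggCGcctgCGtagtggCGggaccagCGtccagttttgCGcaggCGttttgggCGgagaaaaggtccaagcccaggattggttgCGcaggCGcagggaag
Hnrnpa1: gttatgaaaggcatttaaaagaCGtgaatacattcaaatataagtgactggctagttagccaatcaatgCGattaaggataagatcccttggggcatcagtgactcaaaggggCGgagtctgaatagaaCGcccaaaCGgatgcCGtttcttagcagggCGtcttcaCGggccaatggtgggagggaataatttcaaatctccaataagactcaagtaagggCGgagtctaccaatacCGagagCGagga
Tubb4b: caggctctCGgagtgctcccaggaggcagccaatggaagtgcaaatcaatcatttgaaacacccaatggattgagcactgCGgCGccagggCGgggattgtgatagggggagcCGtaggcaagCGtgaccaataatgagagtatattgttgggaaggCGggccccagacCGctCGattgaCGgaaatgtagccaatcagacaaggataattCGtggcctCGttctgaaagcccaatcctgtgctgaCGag
Cited2: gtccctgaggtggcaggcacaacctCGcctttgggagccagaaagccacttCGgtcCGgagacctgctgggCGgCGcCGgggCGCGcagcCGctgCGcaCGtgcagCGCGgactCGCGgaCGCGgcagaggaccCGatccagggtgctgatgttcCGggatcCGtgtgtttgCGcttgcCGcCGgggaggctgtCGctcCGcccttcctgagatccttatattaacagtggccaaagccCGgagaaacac
Cox6b2: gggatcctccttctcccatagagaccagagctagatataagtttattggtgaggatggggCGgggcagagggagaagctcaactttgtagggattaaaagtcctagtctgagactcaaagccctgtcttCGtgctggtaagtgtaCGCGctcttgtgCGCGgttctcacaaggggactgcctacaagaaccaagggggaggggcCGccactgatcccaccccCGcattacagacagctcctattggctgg
Polr2a: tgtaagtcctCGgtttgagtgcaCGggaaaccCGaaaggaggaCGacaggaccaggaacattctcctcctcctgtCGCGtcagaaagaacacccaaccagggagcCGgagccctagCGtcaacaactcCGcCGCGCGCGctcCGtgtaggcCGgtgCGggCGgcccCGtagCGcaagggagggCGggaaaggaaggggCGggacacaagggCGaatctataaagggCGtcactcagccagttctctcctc
Gadd45g: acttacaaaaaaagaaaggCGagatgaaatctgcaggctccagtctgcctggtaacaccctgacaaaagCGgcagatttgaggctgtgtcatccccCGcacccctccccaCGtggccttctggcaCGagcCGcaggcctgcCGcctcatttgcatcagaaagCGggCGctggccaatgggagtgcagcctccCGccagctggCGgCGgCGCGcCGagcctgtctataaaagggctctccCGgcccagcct

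These windows held 22 CG pairs (Cbx5), 11 (Hnrnpa1), 13 (Tubb4b), 26 (Cited2), 8 (Cox6b2), 23 (Polr2a) and 16 (Gadd45g), against a median of 10 over all 20085 listed starts. Cox6b2 lay under that median, and Hnrnpa1, Tubb4b and Cox6b2 lay under the median of 15 to 16 of the listed starts in other peaks of each library. Cbx5, Hnrnpa1 and Tubb4b were chosen for display after their values were seen.

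Peaks of all 4 libraries were of nearly one size. The median width over all autosomal peaks was 873, 877, 878 and 882 bp, given here and below in the order day 0 wild type, day 0 knockout, day 5 wild type, day 5 knockout, and the wide sets began at 1077, 1142, 1082 and 1174 bp. A wide peak was thus mostly a little longer than an ordinary one: the medians within the sets were 1114.5, 1192.5, 1118 and 1243 bp. The longest peaks measured 2103, 2063, 1926 and 2078 bp. In 3 of the 4 libraries the limit cut through ties. In the wild type at day 0 the last member (1077 bp, nearest gene start Tle4) was followed by a peak of 1076 bp (nearest Cul3). In the knockout at day 0 the last member near Zfp365 and the next peak near Dtnbp1 both measured 1142 bp. In the wild type at day 5 the pair at the limit (Col5a2 and Cdc123) measured 1082 bp each, and in the knockout at day 5 (Map1b and Fbxo40) 1174 bp each.

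The tail of long peaks was heavier in both knockout lists. Peaks of at least 1200 bp numbered 146 (0.0751% of autosomal peaks, 0.0634 to 0.0883) in the day 0 wild type and 463 (0.214%, 0.195 to 0.234) in the day 0 knockout. At day 5 they numbered 109 (0.0588%, 0.0483 to 0.0709) for wild type and 741 (0.335%, 0.311 to 0.360) for knockout. Peaks of 1500 bp or more numbered 30, 100, 18 and 129. The knockout lists were also the longer ones, and the part of depth or of the number of nuclei in either difference was not tested. Because of it the limits differ, and a peak of 1109 bp would have been a member in either wild-type library and in neither knockout.

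**Figure D1:**
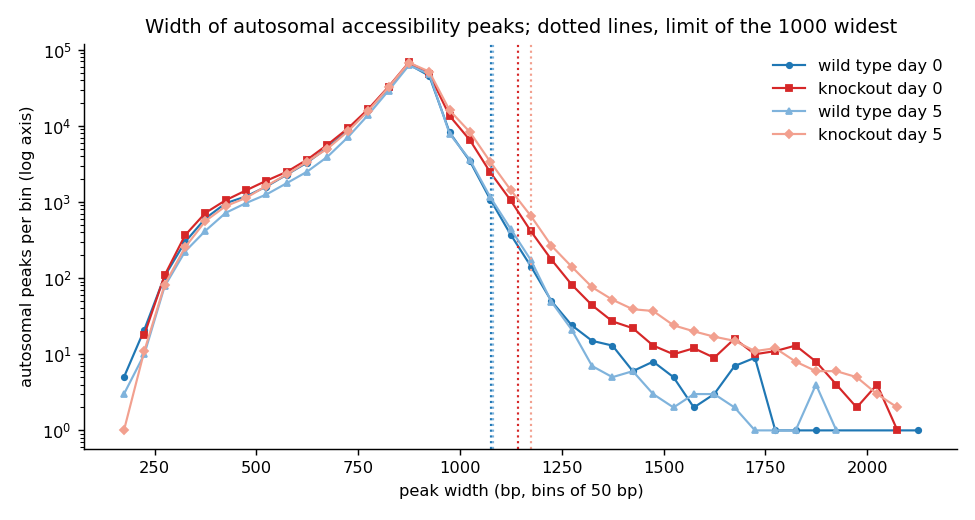
Number of autosomal peaks (log axis) by width in bins of 50 bp for the 4 libraries, with each library's limit of the 1000 widest as a dotted line (1077, 1142, 1082 and 1174 bp). The 4 curves peak together between 850 and 899 bp and part from 950 bp, and between 950 and 1700 bp both knockout curves lie above both wild-type curves.

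The wide peaks lay at gene starts less often than peaks in general. A start here is a listed start of a protein-coding gene or, for the 4208 genes without one, either outermost end of the gene, one of which is its 3′ end. The midpoint was within 1 kb of such a place in 31 of the 1000 at day 0 in the wild type (3.1%, 2.12 to 4.37), against 8.87% of all its autosomal peaks. In the knockout at day 0 the count was 47 (4.7%, 3.47 to 6.20) against 8.04%. In the wild type at day 5 it was 16 (1.6%, 0.917 to 2.59) against 8.93%, and in the knockout at day 5 it was 38 (3.8%, 2.70 to 5.18) against 7.80%. All 4 intervals lay below the share over all peaks. The next 1000 peaks by width had 39, 38, 31 and 25 such peaks, which lay inside the members' interval in both day 0 libraries, above it in the day 5 wild type and below it in the day 5 knockout. With listed starts alone the counts of members were 25, 32, 12 and 29 (2.5, 3.2, 1.2 and 2.9%), against 6.76, 6.10, 6.90 and 5.96% of all autosomal peaks. Over all peaks the share near a start was highest at ordinary widths and lower from 950 bp upward. It was 9.75% at 900 to 949 bp and 4.67% at 950 to under 1000 bp in the wild type at day 0, and 11.4% and 3.14% in the wild type at day 5. In the knockout the same bands had 8.88% and 4.53% at day 0, and 9.27% and 4.10% at day 5.

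This depends on how a wide region is defined. When peaks up to 500 bp apart were joined before ranking, the 1000 widest joined stretches began at 2910, 3113, 2309 and 2982 bp. Their share near a start was then 10.8% in the wild type at day 0 (8.97% of all joined stretches) and 11.7% in the wild type at day 5 (9.04%), above the background. In the knockout it was 6.8% at day 0 (8.25%) and 7.6% at day 5 (7.95%), still below it. No interval was made for these joined shares, so their differences from the background are a description. A midpoint within 1 kb also misses starts near the ends of a long stretch. A start or outermost end lay inside 17.2, 12.5, 16.0 and 14.6% of the widest joined stretches. Over all joined stretches the share was 7.97, 7.38, 8.16 and 7.13%, and longer stretches have more room to hold a start. The low share at gene starts was thus seen for single long peaks, and for joined stretches the direction depended on the measure.

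**Figure D2:**
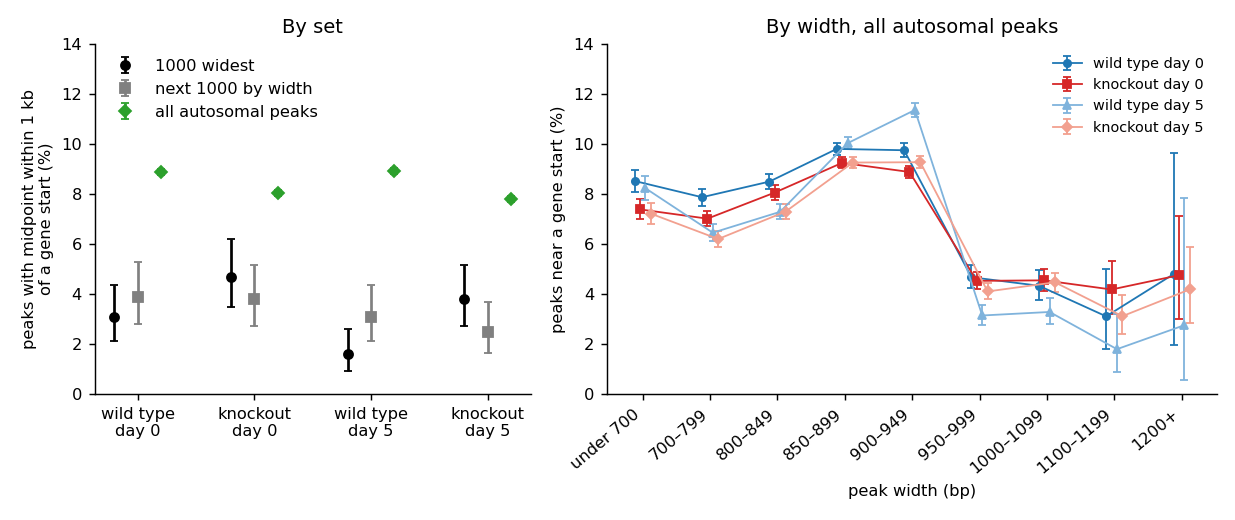
Left, percent of peaks whose midpoint lies within 1 kb of a gene start, for the 1000 widest, the next 1000 by width and all autosomal peaks of each library; right, the same percent for all autosomal peaks by width; bars are 95% exact intervals. The 1000 widest sit at 1.6 to 4.7%, all peaks at 7.80 to 8.93%, and the share drops in every library above 950 bp.

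The remaining wide peaks divided between gene bodies and the space between genes. Midpoints fell in a protein-coding gene, beyond 1 kb of a start, in 494, 475, 454 and 470 of the 1000, or 45.4 to 49.4%, against 45.4 to 46.8% of all autosomal peaks. Intergenic midpoints numbered 475, 478, 530 and 492 (47.5, 47.8, 53.0 and 49.2%), against 44.3, 45.1, 45.7 and 46.2% of all autosomal peaks. The next 1000 by width had 486, 515, 515 and 488. The median distance to the nearest start was 29.5, 24.2, 49.2 and 31.3 kb, against 22.3, 23.7, 28.3 and 26.7 kb over all peaks. The wild type at day 5 stood farthest out, with 319 of its 1000 wide peaks more than 100 kb from any start (31.9%, against 22.1% of all its peaks), and the knockout at day 0 was nearest, with 144 (14.4%, against 17.5%). The next 1000 peaks by width had like median distances, 29.4, 24.1, 46.6 and 32.4 kb. Of these, 29.8% lay beyond 100 kb in the day 5 wild type and 17.9% in the day 0 knockout.

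The genes that hosted wide peaks in their bodies had a median length of 108, 91.0, 145 and 107 kb, against 17.5 kb over all genes, and a longer gene has more room for a peak. They numbered 517, 489, 437 and 477, and of 1645 in all, 1403 hosted a wide peak in 1 library. Wild type and knockout shared 55 hosts at day 0 (10.6% and 11.2% of the lists) and 46 at day 5 (10.5% and 9.64%). For the next 1000 peaks by width these were 48 hosts (9.92% and 10.5%) and 46 (10.2% and 9.64%). The 3 hosts common to all 4 libraries were Iqgap2, a scaffold protein of the cytoskeleton (265 kb), Smyd3, a lysine methyltransferase (566 kb), and Ptprm, a receptor tyrosine phosphatase (688 kb). Each held between 1 and 2 wide peaks per library.

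Neighbouring peaks were farther from a wide peak than from peaks in general. The median gap to the nearest neighbour was 2265, 1702.5, 3222.5 and 2315.5 bp, against 1676, 1539, 2364 and 1865 bp over all peaks. A neighbour within 500 bp was seen for 10.7, 13.9, 5.2 and 12.5% of the wide peaks, against 20.0, 21.8, 15.4 and 18.9% of all peaks. Both traits were shared with the next 1000 peaks by width. Their median gaps were 2351, 1897.5, 3352.5 and 2244 bp, and 10.8, 13.6, 6.2 and 10.1% of them had a neighbour within 500 bp. In the 50 kb on each side the median number of other peaks was 13, 16, 9 and 14, against 14, 16, 11 and 14.

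The 4 wide sets were nearly disjoint. At day 0, 21 of the 1000 wide peaks of the knockout overlapped one of the 1000 of the wild type (2.1%, 1.30 to 3.19, against 0.416% of all knockout peaks), and the same 21 counted from the wild type stood against 0.448%. At day 5 the overlap was 9 peaks (0.9%, 0.412 to 1.70), against 0.342% of all knockout peaks and, counted from the wild type, 0.419%. Between days the wild type shared 13 (1.3%, 0.694 to 2.21), against 0.314% of its day 0 peaks and 0.370% of its day 5 peaks. The knockout shared 19 between days (1.9%, 1.15 to 2.95), against 0.410% and 0.401%. Across genotype and day at the same time, the wild type at day 0 and the knockout at day 5 shared 18 (against 0.420% and 0.378%), and the knockout at day 0 and the wild type at day 5 shared 11 (against 0.313% and 0.381%). Each overlap was above its background over all peaks and small. At day 5 between genotypes the interval, 0.412 to 1.70%, reached the wild-type background of 0.419%. The comparisons share libraries and are not independent of each other.

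Of the next 1000 peaks by width, 0.4 to 1.6% overlapped a wide peak of another library. At day 5 between genotypes the members did not exceed them. There 1.1% of the wild type's next 1000 and 1.0% of the knockout's overlapped the other wide set, against 0.9% of the members. In every other ordered pair the members' share was the higher, by little for the wild type of day 5 in day 0 (1.3% against 1.2%). Joining peaks up to 500 bp apart before ranking gave a different picture: 34.8% of the 1000 widest joined knockout stretches at day 0 overlapped one of the 1000 widest of the wild type (0.649% of all joined knockout stretches did), and 22.9% at day 5 (0.613%). Between days it was 20.2% of the day 5 stretches in the wild type (0.722%) and 28.7% in the knockout (0.676%). Longer stretches have more room to overlap. Of 2904 joined regions, 81 were wide in all 4 libraries.

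**Figure D3:**
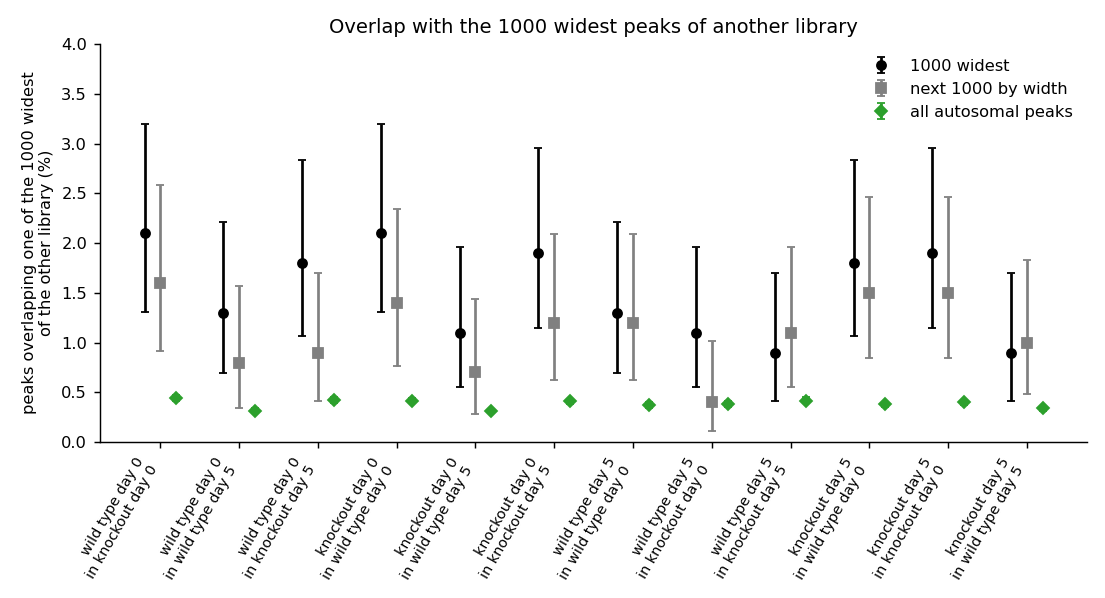
Percent of the 1000 widest, the next 1000 and all autosomal peaks of a library that overlap one of the 1000 widest of another library, for the 12 ordered pairs, with 95% exact intervals. The 1000 widest lie between 0.9 and 2.1% and all peaks between 0.313 and 0.448%.

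Merged where they overlapped, the 4000 wide peaks gave 3912 regions. Of these 3827 were wide in 1 library, 82 in 2 libraries and 3 in 3 libraries. None was wide in all 4, and a count of 0 among 3912 allows a share of up to 0.0767% (3 counts of the total). The pairs were spread over all combinations: 18 regions in both day 0 libraries, 12 in both wild-type libraries, 16 in the wild type at day 0 and the knockout at day 5, 10 in the knockout at day 0 and the wild type at day 5, 17 in both knockout libraries and 9 in both day 5 libraries. Regions wide in more than 1 library held a listed gene start more often, 9 of 85 (10.6%) against 73 of 3827 (1.91%). This difference was not tested. A merged region can be longer than a single peak, with more room to hold a start. The 85 were also picked for recurring between libraries, and no share over other recurrent peaks was made. In 70 of the 85 a peak of some width was listed in all 4 libraries. For regions wide in 1 library this was so in 516 of 951, 504 of 952, 479 of 968 and 488 of 956, in the order of libraries given above. The 85 have a peak in at least 2 libraries by choice, so a higher share among them is partly built in.

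The same places were usually open in the other library, with a peak of ordinary width. Of the knockout's wide peaks at day 0, 781 met some peak of the wild type (78.1%, 75.4 to 80.6, against 75.5% of all knockout peaks), and of the wild type's, 859 met one of the knockout (85.9%, 83.6 to 88.0, against 84.0%). At day 5, 694 of the knockout's met a wild-type peak (69.4%, 66.4 to 72.2, against 64.3%) and 726 of the wild type's met a knockout peak (72.6%, 69.7 to 75.3, against 76.6%). Between days, 589 of the wild type's wide peaks of day 5 met a day 0 peak (58.9%, 55.8 to 62.0, against 66.9%) and 651 of day 0 met a day 5 peak (65.1%, 62.1 to 68.1, against 63.9%). In the knockout the numbers were 761 of day 5 (76.1%, 73.3 to 78.7, against 72.8%) and 797 of day 0 (79.7%, 77.1 to 82.2, against 74.4%). The wild type at day 5 was the library whose wide peaks met fewer peaks elsewhere than its peaks at large. In it 202 wide peaks (20.2%) met no peak of any other library, against 16.0% of all its peaks, while in the other 3 libraries such peaks were 5.7, 8.2 and 10.1%, against 8.13, 11.8 and 14.2%. Of the next 1000 by width, 22.3% met none in the day 5 wild type, and 7.7, 9.6 and 11.7% in the other 3 libraries.

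Where exactly 1 peak lay at the place in the other library, its median width was 885 to 906.5 bp over the 12 ordered pairs, close to the 873 to 882 bp of all peaks. Choosing peaks for their width in one library lowers the width seen in another, and this held in both directions: the knockout's wide peaks at day 0 met peaks of 895 bp in the wild type, and the wild type's met peaks of 903 bp in the knockout. The widest peak at the place covered a median of 68.5 to 79.8% of the wide interval.

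A wide peak in one library was listed as 2 or more peaks in another much more often than peaks in general. At day 0 this was so for 90 of the knockout's (9.0%, 7.30 to 10.9, against 0.397%) and for 43 of the wild type's (4.3%, 3.13 to 5.75, against 0.523%). At day 5 it was so for 82 of the knockout's (8.2%, 6.57 to 10.1, against 0.462%) and 30 of the wild type's (3.0%, 2.03 to 4.26, against 0.694%). Between days the wild type had 35 from day 0 (3.5%, 2.45 to 4.83, against 0.574%) and 21 from day 5 (2.1%, 1.30 to 3.19, against 0.733%), and the knockout had 89 from day 0 (8.9%, 7.21 to 10.8, against 0.796%) and 128 from day 5 (12.8%, 10.8 to 15.03, against 0.879%). A longer interval has more room to meet several peaks. The share went with width: in the 12 ordered pairs 0.559 to 2.36% of wide peaks under 1200 bp were listed in pieces, 5.49 to 20.7% of those of 1200 to under 1500 bp and 20 to 53.3% of those of 1500 bp or more. At day 0, 47 of the knockout's 100 longest class and 16 of the wild type's 30 were in pieces in the other genotype. Where a wide peak was in pieces elsewhere, the pieces together covered a median of 84 to 89% of its length over the 12 ordered pairs. These places were picked for being divided, so the coverage is a description.

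**Figure D4:**
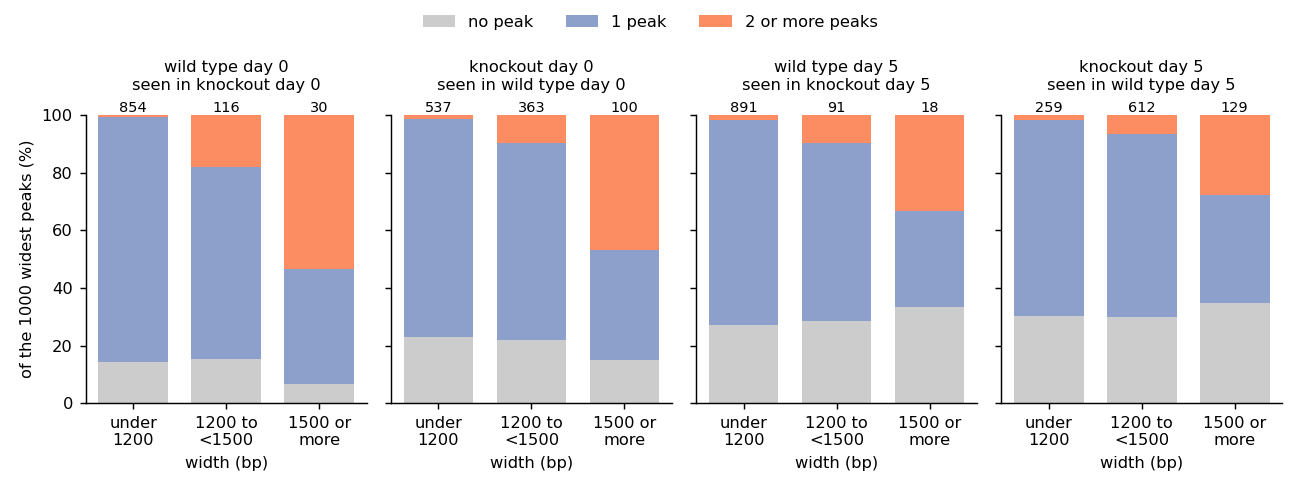
Percent of each library's 1000 widest peaks that met no peak, 1 peak or 2 or more peaks of the other genotype on the same day, by width, with the number of wide peaks above each bar. The share met by 2 or more peaks is under 3% below 1200 bp and between 27.9 and 53.3% at 1500 bp or more.

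No region was wide everywhere, and 3 were wide in 3 libraries. The region with the starts of Cbx5 and Hnrnpa1, chr15:103239183-103240643, had peaks of 1324 bp in the wild type at day 0, 1449 bp in the knockout at day 0 and 1456 bp in the knockout at day 5. In the wild type at day 5 it was listed as 2 peaks, the wider of 584 bp, which together covered 1134 bp. The Tubb4b start, chr2:25224217-25225510, had peaks of 1144, 1145, 912 and 1261 bp, of which the 912-bp peak, in the wild type at day 5, was not a member. The third, chr2:164859204-164860439, lay 2.11 kb from the start of Pltp, a phospholipid transfer protein, with 1219, 1186, 1086 and 1053 bp. Its shortest peak was in the knockout at day 5. Rows of 4 widths keep the order of libraries given above.

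Regions wide in 2 libraries are ranked here and below by the mean width of their wide peaks. Of the regions wide in both day 0 libraries alone, the first lay in Ttyh1, a membrane protein of neural cells. The Ttyh1 region, chr7:4124103-4125973, had 1871, 1801, 893 and 990 bp. The day 5 peaks were of ordinary width, and in the wild type there were 2 of them, covering 1331 bp together. A region 22.3 kb from the start of Nifk, a nucleolar protein, had 1496, 1727, 869 and 841 bp. In Vav2, 1 region had 1723 and 1401 bp at day 0, no peak in the wild type at day 5 and 856 bp in the knockout at day 5. A region 13.1 kb from the clock gene Cry1 had 1475 and 1224 bp, no peak and 800 bp in the same order. At the Cited2 start the day 0 peaks measured 1212 and 1381 bp, and both day 5 libraries listed 2 peaks there whose wider ones were 809 and 775 bp, covering 1254 and 1259 bp together. The Cited2 region was thus covered to a like extent in all 4 libraries, while the other 4 were covered less or not at all at day 5, Ttyh1 in the wild type still for 1331 bp.

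Of the regions wide in both day 5 libraries alone, the first by mean width lay 2.05 kb from the start of Rin3. Rin3 is a regulator of Rab GTPases, and the region is chr12:102280120-102281924. It had no peak in the wild type at day 0, 705 bp in the knockout at day 0, and 1805 and 1552 bp at day 5. A region 4.29 kb from an end of AU018091 had 866, 1129, 1088 and 1564 bp. About 30.3 kb before Eomes, a T-box factor of early mesendoderm, the wild type had a peak of 1140 bp and the knockout one of 1245 bp at day 5. These 2 peaks overlapped at their edges by 143 bp, and at day 0 the wild type had none there and the knockout one of 894 bp. A region in Trp63, a p53-family factor of epithelia, had 894, 902, 1173 and 1205 bp, and one in Mtarc2 had 851, 852, 1150 and 1212 bp. In these 5 the day 0 peaks were shorter or absent, except that the knockout peak at AU018091 exceeded the wild type's of day 5. The regions were grouped for being wide on day 5 alone, so this is a description.

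Of the regions wide in both knockout libraries alone, the first by mean width lay in Il3ra, a cytokine receptor subunit. This region, chr14:14346977-14348641, was 1.31 kb from the gene's start. It had 767, 1665, 0 and 1647 bp, where 0 stands for no listed peak. In Arpin, an inhibitor of actin branching, 1 region had 797, 1251, 0 and 1835 bp. At the start of Cox6b2 the knockout had 1 peak of 1596 bp at day 0 and of 1371 bp at day 5, and the wild type 2 peaks on each day, covering 1345 and 1183 bp together. At the start of Slc27a1, a fatty acid transporter, the widths were 931, 1386, 794 and 1544 bp. A region 45.3 kb from an end of Plpp1, a lipid phosphatase, had 1297 and 1521 bp in the knockout and 2 peaks in each wild-type library, covering 1297 and 1376 bp together. The wild type thus lacked a peak at day 5 for Il3ra and Arpin, and for Cox6b2 and Plpp1 it had shorter peaks over much of the same stretch. The start of Srcap, a chromatin remodelling ATPase, which was outside the naming rule and was picked after its values were seen, had 822, 1387, 701 and 1343 bp. There the wild type at day 0 listed 2 peaks, covering 1384 bp together, and the wild type at day 5 listed 1.

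Of the regions wide in both wild-type libraries alone, the first by mean width lay 18.5 kb after the start of Sox2. Sox2 is a core pluripotency factor that neural progenitors also use, and the region is chr3:34667872-34669120. It had 1199, 1109, 1249 and 1130 bp. The knockout peaks there were longer than the limit of either wild-type set and shorter than their own, so its membership follows from the different limits. The next were in Ptprg, a receptor phosphatase (1208, 1000, 1097 and 892 bp), far from Cdh26 (1083, 986, 1217 and 939 bp), 22.7 kb from Serpinb5 (1146, 985, 1120 and 1061 bp) and in Grk2, a receptor kinase (1101, 930, 1158 and 727 bp). In these 4 every knockout peak was also shorter than both wild-type limits.

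The very longest peaks were too few to set their place at genes apart from peaks in general. Of the 10 widest of each library, 40 in all with 1684 to 2103 bp, 1 had a listed gene start within 1 kb (Kcnh7). An outermost end was that near for 2 (Sorcs2 and Rdm1), and 15 lay in a gene. The 3 of 40 near a start or end stand beside 7.80 to 8.93% of all autosomal peaks. The 15 in a gene stand beside 51.5 to 52.9%. The widest of all, in the wild type at day 0, was 16.7 kb from the start of Errfi1, an inhibitor of EGF receptor signalling, with 2103 bp. The knockout at day 0 listed 2 peaks there (wider one 1009 bp), covering 1866 bp together. The wild type at day 5 had no peak there and the knockout at day 5 a peak of 925 bp. The widest of the knockout at day 0 lay at an end of Rdm1, with 808, 2063, 865 and 1060 bp. Each of the other 3 libraries listed 2 peaks there. Together these covered 1406 bp in the wild type at day 0, and 1603 and 1944 bp in the wild type and knockout at day 5. The widest of the wild type at day 5 lay 11.6 kb from an end of Cd69, with 884, 890, 1926 and 879 bp. Again each of the others listed 2 peaks, which together covered 1645 and 1689 bp in the wild type and knockout at day 0 and 1653 bp in the knockout at day 5. The widest of the knockout at day 5 lay 35.9 kb from the start of Zdhhc19, with 853, 990, 833 and 2078 bp.

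Some of the longest had no counterpart at all. In the knockout at day 0 a peak of 2030 bp in Ccnl1, a cyclin, and one of 2014 bp 52.0 kb from Gcnt4 met no peak in any other library. In the wild type at day 5 a peak of 1696 bp in Slit2, an axon guidance ligand, met none either. In the knockout at day 5 a peak of 2057 bp in Iqgap2 met none at day 0 and 834 bp in the wild type at day 5. The start of the potassium channel gene Kcnh7, sixth in the wild type at day 0, was long in the opposite condition too. Its peak measured 1728 bp in the wild type at day 0 and 1724 bp in the knockout at day 5. The knockout at day 0 and the wild type at day 5 listed 2 peaks each, covering 1560 and 1571 bp together.

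Wide peaks covered few gene starts, and their small share of all peaks limits that number. Of 20665 autosomal protein-coding genes, 31 had a start, or for genes without a listed start an outermost end, inside a wide peak of the wild type at day 0 (0.150%). The numbers were 49 in the knockout at day 0 (0.237%), 13 in the day 5 wild type (0.0629%) and 37 in the day 5 knockout (0.179%), whereas 13866 to 14146 had one in a peak of any width. Of the genes with a start or end in any peak, wide peaks held 0.224, 0.349, 0.0930 and 0.262%, in the order of libraries given above. The wide peaks themselves were 0.514, 0.462, 0.539 and 0.452% of all autosomal peaks. Over the libraries 105 genes were covered in 1 library, 8 in 2 libraries (Actr10, Cited2, Cox6b2, Kcnh7, Mnt, Pcdhb2, Slc27a1 and Srcap), 3 in 3 libraries (Cbx5, Hnrnpa1 and Tubb4b) and none in 4. Actr10, a dynactin subunit, and Kcnh7 were covered in the wild type at day 0 and the knockout at day 5. Mnt, a repressor of the Max network, was covered on day 0 in both genotypes.

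Counted per listed start, the promoters inside wide peaks at day 5 held fewer CG pairs than those in other peaks. At day 0 the shares overlapped. The median number of CG pairs in the 250 bases before the start was 13 for the 28 listed starts in wide peaks of the wild type at day 0, 13 for 35 in the knockout at day 0, 6 for 12 in the wild type at day 5 and 8.5 for 36 in the knockout at day 5. Starts in other peaks had medians of 16, 15, 16 and 16, and starts in no peak had 2. At least 10 CG pairs were found in 64.3% (44.1 to 81.4), 68.6% (50.7 to 83.1), 33.3% (9.92 to 65.1) and 44.4% (27.9 to 61.9) of the starts in wide peaks. The share over starts in other peaks was 72.4 to 73.3%, and over all listed starts 51.3%. The day 0 intervals include the share of other peaks, and both day 5 intervals lie below it. These starts are not independent units. In the order of libraries given above they lay in 24, 30, 10 and 29 wide peaks, and some are alternative starts of the same gene. The intervals count every start separately and may be too narrow. Whether the day 5 difference holds when counted per peak or per gene was not tested.

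The genes of 19 lists, 534 on the autosomes, were covered in too few cases to set them apart from genes at large. The count was 1 in the wild type at day 0 (0.187%, against 0.150%), 1 in the knockout at day 0 (0.187%, against 0.237%), 0 in the wild type at day 5 (against 0.0629%) and 1 in the knockout at day 5 (0.187%, against 0.179%). These were Gadd45g, with 1093 bp in the wild type at day 0 and 647, 732 and 689 bp in the knockout at day 0 and the wild type and knockout at day 5. Polr2a had 1165 bp in the knockout at day 0 and 938, 1032 and 1075 bp in the wild type at day 0 and the wild type and knockout at day 5. Rpl7, a ribosomal protein gene known here only by an outermost end, had 1186 bp in the knockout at day 5 and 897, 966 and 856 bp in the others. None of the 12 core pluripotency, 15 naive, 12 formative, 30 neural progenitor, 12 neuron, 139 developmental regulator or 39 Hox genes had its start in a wide peak of any library. The same was so for the fibroblast, endoderm, blood and trophoblast lists, with 19, 13, 16 and 9 genes.

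Within 50 kb of the starts of all protein-coding genes, wide peaks made up 0.476, 0.467, 0.432 and 0.440% of peaks, and around the listed genes they were too few to set apart from that. For the core pluripotency genes they were 2 of 275 peaks, 2 of 298, 1 of 213 and 1 of 288. Beside the region 18.5 kb from Sox2, a peak 30.2 kb after its start was wide in the knockout at day 0 (1256 bp), with 908, 727 and 891 bp in the wild type at day 0 and the wild type and knockout at day 5. A peak 4.17 kb before L1td1, an RNA-binding protein of stem cells, had 999, 1209, 909 and 896 bp. Of the naive genes Klf2 had wide peaks on both sides in the knockout at day 5, one 26.1 kb before its start (815, 889, 0 and 1451 bp) and one 35.0 kb after it (766, 720, 851 and 1277 bp). The naive list as a whole had 0 of 379, 0 of 408, 0 of 279 and 3 of 368 peaks.

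Of the formative genes, which mark the state that follows naive pluripotency, the DNA methyltransferase Dnmt3b had a wide peak 11.6 kb after its start in the wild type at day 0 (1274, 889, 878 and 897 bp). Among neural progenitor genes, Zic5 had one 2.86 kb before its start in the knockout at day 0 (1009, 1168, 645 and 712 bp), and the Notch ligand Dll1 had one 49.7 kb away in the wild type at day 5 (0, 0, 1106 and 857 bp). The neural progenitor list had 1 of 530, 2 of 547, 1 of 535 and 0 of 557 peaks. Developmental regulators had 7 of 2145, 9 of 2348, 3 of 2056 and 7 of 2392. Among them Msx2 had a peak of 1802 bp 38.4 kb before its start in the knockout at day 5 (818, 808 and 823 bp in the others), and Six2 one of 1379 bp 12.9 kb away in the wild type at day 0, with no peak in the knockout at day 0 or the wild type at day 5 and 903 bp in the knockout at day 5. Ddit4, an inhibitor of mTOR signalling in the stress list, had 3 wide peaks within 50 kb in the knockout at day 5. Of these, the peaks of 1485 and 1241 bp met no peak in any other library, and the third had 1094, 1094, 1069 and 1238 bp.

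Of 919 autosomal microRNA hairpins, 2 lay in a wide peak of the knockout at day 0, where 218 lay in a peak of any width. None lay in a wide peak of the other libraries, where 206 to 218 lay in some peak. The mature form that the RefSeq table (GRCm38.p6) lists for each of the 2 is given with the seed, bases 2 to 8, in capitals. For Mir375 this is the 5p form alone, so the seed shown is not that of a form from the other arm of the hairpin. Mir375 lay at chr1:74900658-74900721 (minus strand) in a peak of 1200 bp, with 928, 926 and 913 bp in the wild type at day 0 and the wild type and knockout at day 5. Mir6367 lay at chr16:91527443-91527544 (minus strand) in a peak of 1170 bp, with 864, 840 and 1037 bp in the same order.
mmu-miR-375-5p: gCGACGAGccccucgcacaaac
mmu-miR-6367: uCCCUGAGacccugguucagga

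Of the deleted genes, Cdc14a had no wide peak in its body in any library, with widest peaks of 969, 991, 918 and 1099 bp. Cdc14b had 906, 1163, 897 and 1054 bp, of which the 1163-bp peak, in the knockout at day 0, was a member. The deleted part is not given in the sources used here, so these peaks do not check the labels. All 7 stem cell markers and all 5 neural progenitor markers had a peak within 1 kb of the start in every library, and none was in a wide one. Of all 20665 genes 75.3 to 76.9% had such a peak. For the other cell types, 5, 6, 7 and 7 of 7 fibroblast markers had one, 2, 3, 3 and 4 of 5 endoderm markers and 3 of 5 blood and endothelium markers in each library. Lum of the fibroblast markers had none at day 0, and Afp, Ptprc and Hbb-bs had none in any library. A peak at a marker is open chromatin and not expression, and the part of other cells in the wide peaks was not tested.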

How the data were processed

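Each list deposited by the authors gives the chromosome, start and end of every peak and no score, so the values are positions in bp. Per the file headers, peaks were called in each library by cellranger-arc 2.0.0 on mm10 2020-A. Scanpy 1.7.2 and Cell Ranger ARC 2.0.0 appear in the submitters' processing notes, with mm10 as the build. The number of nuclei, the handling of doublets and the depth are not given in the sources used here.

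From the deposited lists, width (end minus start) was ranked over the 19 autosomes in each library (Python 3.11.15, pandas 2.3.3, scipy 1.17.1). Gene starts came from RefSeq's GRCm38.p6: 20085 listed starts for 16457 protein-coding genes, and both outermost ends for the other 4208 genes. Overlap required 1 bp. The interval functions were tested on simulated data. The members and gene lists were chosen with earlier results of these data known. Genes are named by rule. First comes the gene at the 10 widest peaks of each library. Next are the 5 regions of each membership with the largest mean width of their wide peaks. The rest are list genes in wide peaks, Cdc14a, Cdc14b and peaks at the limit. For brevity the text gives examples from the first 2 groups. Peaks near list genes are examples chosen after their values were seen. X, Y and contigs were left out of the sets.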

Additional observations from a re-analysis of the deposited data

Results flagged for a closer look

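The X chromosome, outside the autosomal sets, also carried wide peaks. In the wild type at day 0, 28 of 4273 X peaks were wider than the autosomal limit (0.655%, 0.436 to 0.946, against 0.507% of autosomal peaks). The knockout at day 0 had 16 of 5565 (0.288%, 0.164 to 0.466, against 0.457%). The wild type at day 5 had 10 of 4112 (0.243%, 0.117 to 0.447, against 0.539%), and the knockout at day 5 had 28 of 6659 (0.420%, 0.280 to 0.607, against 0.447%). The interval excludes the autosomal share in the wild type at day 5 alone. The longest X peak, in the knockout at day 0, measured 2128 bp, longer than any autosomal peak.

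The share of wide peaks in gene bodies, beyond 1 kb of a start, had opposite signs between genotypes on the 2 days. The knockout minus wild type difference was -1.9 percentage points at day 0 (47.5 against 49.4%) and 1.6 at day 5 (47.0 against 45.4%). The difference was not tested, and the intervals of each pair overlap.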

How the results depend on the processing

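Of 91 values recomputed under another setting, 56 stayed within the counting interval of the reported value and 35 moved. The shared limit of 1200 bp and the use of listed starts alone were chosen after seeing the data. Taking 0.5% of each list or adding X and Y moved none of the 9 values each was applied to. The share near a gene start, in the order wild type and knockout at day 0 and then at day 5, was 10.8, 6.8, 11.7 and 7.6% after joining and 7.3, 8.9, 4.7 and 8.5% with all annotated genes (against 13.2, 12.3, 13.1 and 12.04% of all peaks). With listed starts alone it was 3.2% in the knockout at day 0. It was 6.4% in the knockout at day 0 when any base within 1 kb counted, 5.2% in the knockout at day 5 for the 500 widest, and 4.79 and 2.75% in the wild type at day 0 and day 5 for peaks of at least 1200 bp. The overlap of knockout with wild type at day 0 and day 5 was 3.3 and 1.8% for the 2000 widest. For the 500 widest it was 0.4% between genotypes at day 5 and 0.6% between days in the wild type, and with at least 1200 bp in every library these were 0.135 and 0%. Joined, the overlap was 34.8 and 22.9% between genotypes at day 0 and day 5, and 20.2 and 28.7% between days in the wild type and the knockout. Against any peak of the other library it was 78.1, 69.4, 58.9 and 76.1% in the same order. Regions wide in all 4 libraries numbered 1 with the 2000 widest and 81 after joining. Counting all covered bp at the place in place of the widest peak gave 74.9% (knockout in wild type, day 0), 71.5% (the same at day 5), 72.2% (knockout day 5 in day 0), 80.4% (wild type in knockout, day 0), 78.4% (wild type day 0 in day 5) and 74.5% (knockout day 0 in day 5). No paired analysis was possible because each group has 1 library and all 4 labels carry clone 3. With no scores or counts in the lists, depth cannot be set against any value.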

Other observations

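Joining peaks up to 500 bp apart gave 81 regions among the 1000 widest stretches of all 4 libraries, whereas no region of single peaks was among the 1000 widest of all 4. A gene start or outermost end lay inside 19 of them (23.5%, 14.8 to 34.2). Over the 1000 widest joined stretches of each library, themselves far longer than most, the share was 17.2, 12.5, 16.0 and 14.6% (in the order day 0 wild type, day 0 knockout, day 5 wild type, day 5 knockout), and over all joined stretches 7.13 to 8.16%. The interval of the 81 includes 17.2 and 16.0%. The 81 regions included Krt8, a keratin of simple epithelia, with stretches of 5449, 5492, 3246 and 5557 bp in the same order, and Hoxb7, a homeobox gene, with 3193, 3216, 3181 and 3194 bp. The imprinted gene Peg3 and its neighbour Usp29 shared a stretch of 3942, 3959, 3835 and 3922 bp. Krt8, Hoxb7 and Peg3 are the list genes among them.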
